A study of Mus musculus with 4 samples.

Results

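The 7 genes studied belong to the GABA-A receptor family: *Gabra2*, *Gabra4*, *Gabra6*, *Gabrb1*, *Gabrb2*, *Gabrd* and *Gabrg1*. Their RNA levels were compared between *Kdm3b*+/- and WT mice in granule-cell-enriched (GCE) tissue of the cerebellum. They were picked by NCBI gene identifier, 7 of the 24532 identifiers in the expression tables, and all 7 were among the 13652 genes that were abundant enough to be tested. The tables came from RNA-seq of hand-dissected vermis slices of adult male mice, with 2 WT and 2 *Kdm3b*+/- littermates and 1 library per mouse. The *Kdm3b*+/- mice carried a gene-trap vector in 1 of the 2 copies of *Kdm3b*, which encodes a histone demethylase, in every tissue. They descended from targeted embryonic stem cells, were backcrossed to C57Bl/6N and then crossed to C57Bl/6J, and no drug treatment is named for either group. Levels are given as TPM (transcripts per 1000000), which is scaled to transcript length and can therefore be compared between genes.

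GABA-A receptors are chloride channels opened by GABA, the main inhibitory transmitter of the adult brain. Each channel is a ring of 5 subunits, usually α and β subunits together with a γ or a δ subunit, and the makeup of the ring sets where the channel sits and how it responds. In the cerebellum, the α6 subunit (*Gabra6*) is a hallmark of mature granule cells, where it joins β subunits and the δ subunit (*Gabrd*) in receptors outside synapses that give a lasting, or tonic, inhibition. The subunits encoded by *Gabra2* and *Gabrg1* are found in Bergmann glia as well as in neurons.

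In the positions deposited with the tables, the 4 genes *Gabrg1*, *Gabra2*, *Gabra4* and *Gabrb1* lay side by side on chromosome 5, *Gabra6* and *Gabrb2* were neighbours on chromosome 11, and *Gabrd* lay alone on chromosome 4. *Gabrg1* (70751047 to 70842617), *Gabra2* (70961057 to 71095849) and *Gabra4* (71569734 to 71658308) were on the reverse strand, and *Gabrb1* (71700016 to 72137244) was on the forward strand. The gap from *Gabrg1* to *Gabra2* was 118 kb with no other listed gene in it, that from *Gabra2* to *Gabra4* was 474 kb with 1 listed gene, and that from *Gabra4* to *Gabrb1* was 41.7 kb. On chromosome 11, *Gabra6* (42306437 to 42321072, reverse strand) and *Gabrb2* (42419757 to 42632591, forward strand) were 98.7 kb apart with no listed gene between them. *Gabrd* spanned 155384979 to 155398069 on the reverse strand of chromosome 4. These positions matched the GRCm38 assembly. No other listed gene overlapped any of the 7.

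The promoter sequences of 3 genes are shown, for the highest gene of the set (*Gabra6*) and for the 2 genes whose WT and *Kdm3b*+/- values did not overlap (*Gabra2* and *Gabrg1*), both in the cluster on chromosome 5. Each is the 250 bases before the RefSeq start site in GRCm38.p6, read 5′ to 3′ on the gene's own strand, which is the reverse strand for all 3. Capitals mark TTGGC on either strand (GCCAA when it lies on the other strand), the core of the sequence bound by nuclear factor I proteins, which regulate the maturation of granule cells. The regions are chr11:42321073-42321322 for *Gabra6*, chr5:71095850-71096099 for *Gabra2* and chr5:70842618-70842867 for *Gabrg1*.
Gabra6: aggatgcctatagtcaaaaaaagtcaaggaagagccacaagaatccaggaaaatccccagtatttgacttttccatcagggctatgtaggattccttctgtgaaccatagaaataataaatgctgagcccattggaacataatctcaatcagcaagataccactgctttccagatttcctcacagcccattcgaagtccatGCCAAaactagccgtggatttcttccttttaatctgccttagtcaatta
Gabra2: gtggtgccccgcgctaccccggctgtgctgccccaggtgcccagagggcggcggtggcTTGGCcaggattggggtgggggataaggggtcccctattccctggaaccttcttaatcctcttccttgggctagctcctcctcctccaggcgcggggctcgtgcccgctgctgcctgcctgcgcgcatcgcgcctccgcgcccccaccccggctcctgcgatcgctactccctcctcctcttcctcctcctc
Gabrg1: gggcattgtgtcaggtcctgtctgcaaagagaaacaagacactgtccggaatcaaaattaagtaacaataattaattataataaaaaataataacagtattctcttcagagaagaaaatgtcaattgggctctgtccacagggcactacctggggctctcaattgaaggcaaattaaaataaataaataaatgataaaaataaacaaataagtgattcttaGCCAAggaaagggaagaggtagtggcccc

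These 3 promoters differed in base composition. That of *Gabra2* had 70.0% GC and 18 CpG sites, that of *Gabra6* had 40.8% GC and 2 CpG sites, and that of *Gabrg1* had 35.6% GC and 1 CpG site. Over 32851 RefSeq promoters of the same length, the median was 52.4% GC and 6 CpG sites. Each of the 3 held 1 TTGGC, as did 41.5% of all promoters at least once. TATAAA, searched on both strands, was in none of the 3 and in 12.4% of all promoters. CANNTG, the E-box that NeuroD and related factors bind, occurred 0 times in *Gabra6*, 1 time in *Gabra2* and 2 times in *Gabrg1*, and was in 66.2% of all promoters. No match of one motif overlapped a match of another in these 3 sequences. RefSeq promoters were found for 6 of the 7 genes, all but *Gabrd*. *Gabrb1* had 2 start sites, of which 1 lay inside *Gabra4* on the opposite strand, 387 bases from the start of *Gabra4*. The gene model in the tables began at the other, 84 bases from it.

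The libraries held 4.92 and 5.74 Gb of aligned bases in the WT mice and 5.69 and 6.69 Gb in the *Kdm3b*+/- mice. *Kdm3b* itself was at 9.10 and 11.0 TPM in the WT mice and at 8.30 and 7.90 TPM in the *Kdm3b*+/- mice, lower in both but without passing the test (log2 fold change -0.27, SE 0.17, adjusted p = 0.424, limma). All 15 granule cell markers examined were expressed, and 0 of them were called. Their summed level was 4840 to 5960 TPM in the WT mice and 4461 to 4780 TPM in the *Kdm3b*+/- mice, without overlap. Of the 15, 6 had a log2 fold change above 0 and 9 below. At an unadjusted p under 0.05 (limma) 2 were higher and 3 lower, beside 5.47% and 11.5% of all tested genes. Oligodendrocyte markers summed to 15955 to 17464 TPM in the WT mice and 14769 to 17633 TPM in the *Kdm3b*+/- mice, and 1 of 7 was called, *Mobp*, a myelin protein gene, at 925 and 893 TPM against 471 and 482 TPM (log2 fold change -0.93, adjusted p = 0.0133, limma). Purkinje cell markers summed to 1750 TPM in WT mouse 1 and to 778, 982 and 802 TPM in WT mouse 2 and the *Kdm3b*+/- mice. In such bulk tissue, fewer cells of a type and less RNA per cell cannot be told apart. Nothing in the sample labels says more about the mice than genotype and number. All p-values rest on the spread between 2 mice per group, which limma draws for each gene toward a trend over all tested genes.

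The levels of the 7 subunits spanned a 184-fold range, and the granule-cell subunits stood at the top of it. The order was *Gabra6*, *Gabrd*, *Gabrb2*, *Gabrb1*, *Gabra2*, *Gabra4* and *Gabrg1*, from a mean of 1078 TPM to a mean of 5.85 TPM, and it was the same in 4 of 4 libraries. *Gabra6* ranked 95 and *Gabrd* ranked 203 among the 13652 tested genes, while *Gabrg1* ranked 10153. The step from *Gabrd* to *Gabrb2*, at 11.5-fold, was the widest between neighbours. Pooled over both genotypes, the ranges of *Gabra2* and *Gabra4* overlapped, as did those of *Gabra4* and *Gabrg1*, and the ranges of the other neighbours were apart. Within a library, *Gabra2* was 1.25 to 2.56 times *Gabra4*, and *Gabra4* was 1.08 to 1.57 times *Gabrg1*.

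**Figure D1:**
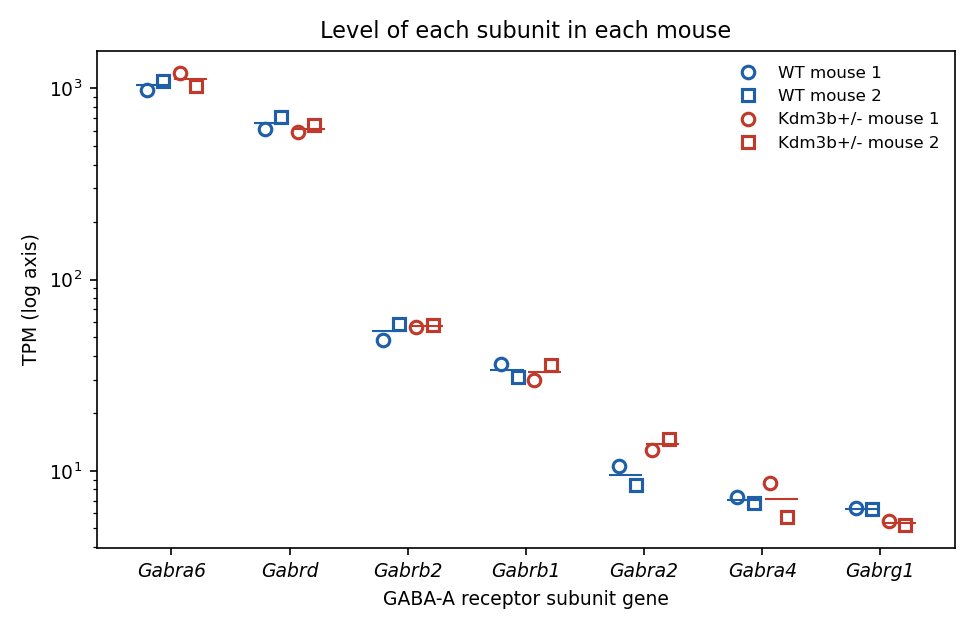
Level of each of the 7 subunits in TPM (log axis) in the 2 WT (blue) and 2 *Kdm3b*+/- (red) libraries, with circles for mouse 1, squares for mouse 2 and lines for group means. *Gabra6* and *Gabrd* lie far above the rest, and the colours separate for *Gabra2* and *Gabrg1*, though they mix for the other 5.

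The comparison of *Kdm3b*+/- with WT mice asks whether loss of 1 copy of this demethylase alters the receptor's subunits in tissue rich in granule cells. None of the 7 subunits passed the test. A gene was called when its adjusted p from limma was under 0.05 and its fold change over 1.2, and 0 of 7 subunits met this, beside 0.461% of all tested genes (0.117% higher and 0.344% lower in *Kdm3b*+/- mice). At an unadjusted p under 0.05 stood 1 subunit, *Gabra2*, higher, beside 17.0% of all tested genes (5.47% higher and 11.5% lower). The median log2 fold change of the 7 was -0.0029, beside -0.07 for all tested genes, with 3 above 0 and 4 below.

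*Gabra6*, the α subunit of mature granule cells, was at 984 and 1097 TPM in the WT mice and at 1199.7 and 1032 TPM in the *Kdm3b*+/- mice. The WT pair enclosed the lower of the *Kdm3b*+/- values, so the groups overlapped. The means were 1040.2 ± 80.0 and 1116 ± 118 TPM (SD, n = 2), and the log2 fold change was 0.10 (95% interval -0.18 to 0.38, adjusted p = 0.713 by limma).

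*Gabrd*, whose δ subunit takes the place of γ in the tonic receptors, was at 611 and 709.7 TPM in the WT mice and at 592 and 642 TPM in the *Kdm3b*+/- mice. Here too the groups overlapped, with *Kdm3b*+/- mouse 2 between the WT mice. Mean levels were 660.4 ± 69.7 and 617 ± 35.6 TPM (SD, n = 2), a log2 fold change of -0.10 (95% interval -0.38 to 0.19, adjusted p = 0.728 by limma). For both granule-cell subunits the interval thus took in changes of either sign, up to a log2 change of 0.38 in size.

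*Gabrb2*, the more abundant of the 2 β subunits, was at 48.4 and 58.9 TPM in the WT mice and at 56.7 and 57.8 TPM in the *Kdm3b*+/- mice. Both *Kdm3b*+/- values lay between the WT values. The log2 fold change was 0.10 (95% interval -0.24 to 0.43, adjusted p = 0.764, limma).

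*Gabrb1*, the other β subunit, was at 36.2 and 31.1 TPM in the WT mice and at 29.9 and 35.8 TPM in the *Kdm3b*+/- mice, and the groups overlapped. Its log2 fold change was -0.03 (95% interval -0.39 to 0.32, adjusted p = 0.930, limma). In the GENCODE annotation of GRCm38 this gene reached 11793 bases past the end that the tables give, so its level rests on a shorter model, and that annotation likewise took *Gabra2* 3460 bases past its 3′ end in the tables.

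*Gabra2* had the largest difference of the 7. It encodes the α2 subunit, which is typical of synaptic receptors in the forebrain and is scarce in granule cells. Its level was 10.6 and 8.48 TPM in the WT mice, against 12.9 and 14.6 TPM in the *Kdm3b*+/- mice. Both *Kdm3b*+/- mice were above both WT mice. The means were 9.54 ± 1.502 and 13.8 ± 1.19 TPM (SD, n = 2), which is a 1.41-fold difference (95% interval 1.08 to 1.84, not adjusted for the number of genes) on the scale of log2(TPM + 1). It did not pass the adjustment over all genes (log2 fold change 0.49, SE 0.17, adjusted p = 0.221, limma), and 9.32% of tested genes had a larger change in either direction. With any 1 library left out, the log2 fold change stayed between 0.35 and 0.64.

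*Gabra4*, which encodes the α4 subunit, a partner of δ in tonic receptors outside the cerebellum, was at 7.32 and 6.79 TPM in the WT mice and at 8.62 and 5.71 TPM in the *Kdm3b*+/- mice. The *Kdm3b*+/- mice differed 1.51-fold from each other and enclosed both WT mice. The log2 fold change was -0.0029 (95% interval -0.46 to 0.46, adjusted p = 0.996, limma).

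*Gabrg1*, the only γ subunit of the set, was at 6.40 and 6.31 TPM in the WT mice and at 5.49 and 5.20 TPM in the *Kdm3b*+/- mice. Both *Kdm3b*+/- mice were below both WT mice. The log2 fold change was -0.21 (SE 0.16, 95% interval -0.59 to 0.16, adjusted p = 0.522, limma), and so it did not pass. It was the lowest gene of the set, with a read depth of 14.2 to 15.9 over its exons, beside 2178 to 3171 for *Gabra6*.

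**Figure D2:**
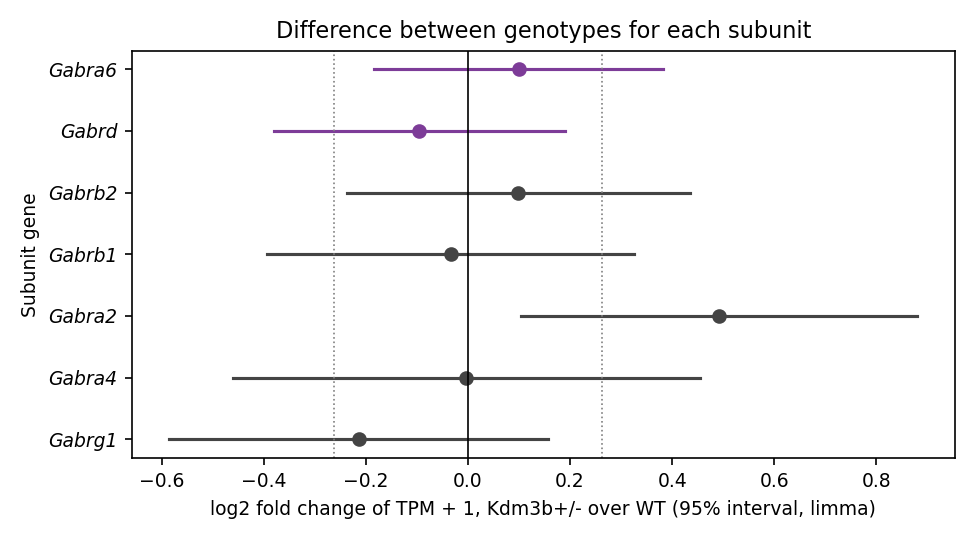
Log2 fold change of each subunit, *Kdm3b*+/- against WT, with 95% intervals from limma that are not adjusted for the number of genes, and dotted lines at a fold change of 1.2. The granule-cell subunits (purple) and all others but *Gabra2* have intervals that take in 0, and that of *Gabra2* runs from 0.10 to 0.88.

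The values of *Gabra2* and *Gabrg1* thus separated by genotype in opposite directions, 2 of the 7 subunits in all. With 2 mice per group such a separation is common, and it was seen in 51.3% of all tested genes, 19.2% higher and 32.0% lower in *Kdm3b*+/- mice. The 11 markers of astrocytes and Bergmann glia, cells in which these 2 subunits are found, had log2 fold changes of either sign, 5 above 0 and 6 below. They summed to 1334 to 1514 TPM in the WT mice and 1250 to 1319 TPM in the *Kdm3b*+/- mice, and none was at 0. Of these 11 markers 2 were called, both higher, where 0.117% of all tested genes were called higher: *Fabp7*, a fatty acid binding protein of radial and Bergmann glia (16.5 and 16.2 TPM against 40.5 and 56.4 TPM), and *Aqp4*, the water channel of astrocytes (59.2 and 82.3 TPM against 149.96 and 152 TPM). At an unadjusted p under 0.05, 3 of the 11 were higher and 4 lower, beside 5.47% and 11.5% of all tested genes. *Hopx*, higher in both *Kdm3b*+/- mice but not called, was at 151 and 103 TPM against 183 and 179 TPM. Its log2 fold change was 0.53 (adjusted p = 0.213, limma). The 4 lower ones had both *Kdm3b*+/- mice below both WT mice, and none of the 4 passed the adjustment. They were *Gdf10* (log2 fold change -1.03), *Timp4* (-0.72), *Aldh1l1* (-0.69) and *Slc1a3* (-0.47), with adjusted p from 0.112 to 0.216 by limma. The part of these markers in the *Gabra2* and *Gabrg1* values was not tested.

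Ratios between subunits do not depend on the scaling of a library. A correction for transcript length and GC content can shift them, and it was not applied to the ratios. With that correction the log2 fold changes were 0.073 for *Gabra6* and 0.065 for *Gabrd*, against 0.10 and -0.10 without it. The granule-cell pair, *Gabra6* and *Gabrd*, held 93.6% and 94.2% of the summed TPM of the 7 subunits in the WT mice, against 94.0% and 93.4% in the *Kdm3b*+/- mice. As a ratio to the other 5, this was 14.6 and 16.2 in the WT mice, against 15.8 and 14.1 in the *Kdm3b*+/- mice. The groups overlapped, with means of 15.4 ± 1.10 and 14.9 ± 1.205 (SD, n = 2), and the difference of -0.05 on the log2 scale was below the SDs of 0.103 and 0.117 on that scale. An exact permutation test (two-sided) cannot go below p = 0.333 with 2 mice against 2, so no p is given for ratios.

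Within the granule-cell pair, the ratio of *Gabra6* to *Gabrd* was 1.61 and 1.55 in the WT mice, against 2.03 and 1.61 in the *Kdm3b*+/- mice. *Kdm3b*+/- mouse 1 stood above the rest, and *Kdm3b*+/- mouse 2 was next to WT mouse 1. The ratio of *Gabrd* to *Gabrb2*, a β partner, was 12.6 and 12.1 in the WT mice, against 10.4 and 11.1 in the *Kdm3b*+/- mice, and its groups did not overlap. Such a separation was seen in 51.3% of single tested genes, and its share among ratios was not computed. That of *Gabra6* to *Gabrb2* was 20.3 and 18.6 against 21.2 and 17.9, with overlap. The ratio of *Gabra2* to *Gabrg1* was 1.66 and 1.34 against 2.36 and 2.81, and its separation follows from that of the 2 genes and adds nothing to it.

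**Figure D3:**
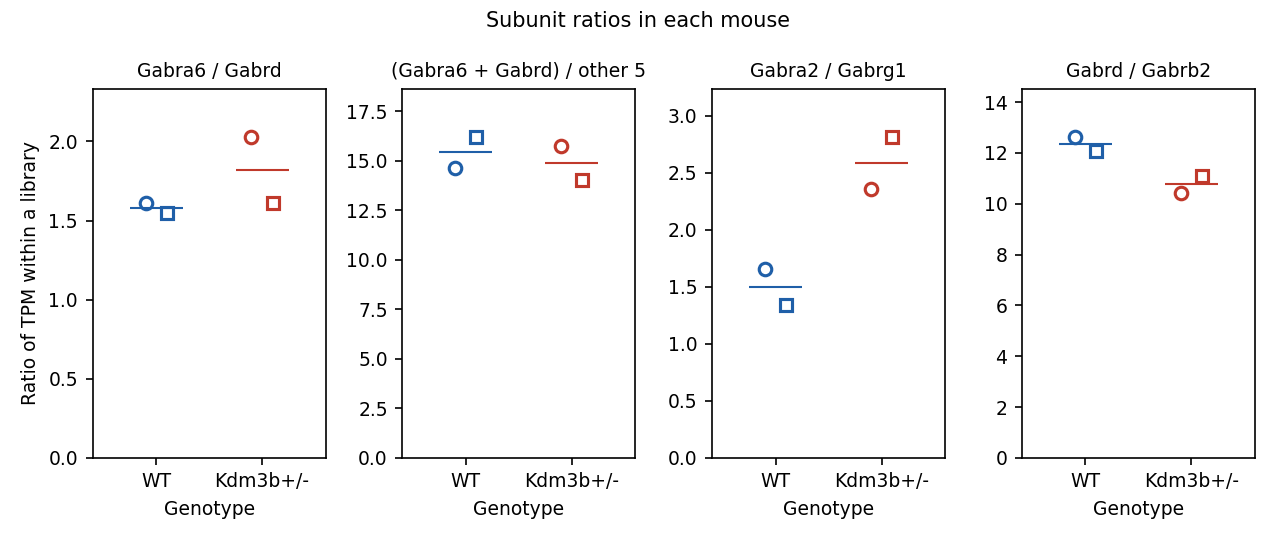
Ratios of TPM between subunits in each library (blue for WT, red for *Kdm3b*+/-, circle for mouse 1, square for mouse 2, lines for group means). The granule-cell pair against the other 5 overlaps between genotypes, while *Gabrd* to *Gabrb2* does not, and *Gabra2* to *Gabrg1* is apart because the 2 genes are. Separation is common with 2 mice per group.

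To see which genes had the profile nearest to those of the granule-cell subunits, each gene's log2(TPM + 1) was centred on its mean over the 4 libraries. Among 8747 genes with a mean of at least 10 TPM, the nearest to *Gabra6* were *Adrm1*, a ubiquitin receptor of the proteasome, *Mtch2*, an insertase of the outer mitochondrial membrane, and *Ankrd9*, at distances of 0.0165, 0.0168 and 0.0203. The nearest to *Gabrd* were *Alg1*, a mannosyltransferase of protein glycosylation, *Dgkd*, a diacylglycerol kinase, and *Tmem115*, a Golgi protein, at distances of 0.0138, 0.0201 and 0.0202. Neither subunit was among the 3 nearest to the other. With 4 libraries, near profiles are frequent, and these names are a description.

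Of 62 further genes of GABA signaling, in 9 lists, 49 were abundant enough to be tested, and 1 of the 49 was called, lower in *Kdm3b*+/- mice, beside 0.344% of all tested genes. At an unadjusted p under 0.05 were 1 higher and 10 lower, beside 5.47% higher and 11.5% lower of all tested genes. The median log2 fold change of the 49 was -0.14, beside -0.07 for all tested genes. Of the 49, 40 were below 0, where 60.0% of all tested genes were below the -0.0029 of *Gabra4*. The call did not hold in any of the 4 fits with a library left out. The genes of the 49 that were called in those fits rested on the 1 *Kdm3b*+/- mouse that was left. Without *Kdm3b*+/- mouse 1 this was *Kctd12*, at 8.57 TPM in that mouse and 0 TPM in *Kdm3b*+/- mouse 2. Without *Kdm3b*+/- mouse 2 these were *Hap1* (16.5 TPM in mouse 1, 26.4 TPM in mouse 2) and *Slc6a13* (3.29 and 6.07 TPM).

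The other GABA-A receptor subunits, 5 of 12 of them tested, were all below 0 and 0 were called, with a median of -0.09. Their summed level was 230 to 255 TPM in the WT mice and 220.5 to 238 TPM in the *Kdm3b*+/- mice. Among the genes that make and break down GABA the median was -0.44, and 0 of 4 were called. *Abat*, the transaminase that degrades GABA, was at 108 and 126 TPM in the WT mice and at 64.8 and 80.9 TPM in the *Kdm3b*+/- mice (log2 fold change -0.68, adjusted p = 0.116, limma). *Aldh5a1*, which acts after it, had the highest log2 fold change of this list, at 0.18. In the list of GABA transporters, which held the only call, 5 of 5 were tested, 1 was called lower and 0 higher. Their summed level was 145 to 153 TPM in the WT mice and 88.0 to 94.9 TPM in the *Kdm3b*+/- mice, without overlap, while the median log2 fold change was -0.06, with *Slc6a12* the highest at -0.0043.

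The GABA-B receptor list, the metabotropic arm of GABA signaling, had 0 of 4 called and a median of -0.42. Its lowest gene, *Kctd12*, an auxiliary subunit, was at 7.99 and 7.88 TPM in the WT mice and at 8.57 TPM in *Kdm3b*+/- mouse 1, and was listed at 0 in *Kdm3b*+/- mouse 2, so no fold is given. The list's median includes *Kctd12* and so rests in part on that 0. *Kctd8*, another auxiliary subunit, had the highest value, at -0.02. Among scaffold and anchoring genes of inhibitory synapses, 0 of 9 were called, with a median of -0.14. *Nlgn2*, the adhesion molecule of inhibitory synapses, was at 7.38 and 7.47 TPM against 10.1 and 10.7 TPM (log2 fold change 0.44, adjusted p = 0.231, limma), and *Dag1*, encoding dystroglycan, was lowest at -0.39.

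For trafficking and assembly of the receptor, 0 of 12 genes were called, and the median was -0.15. *Hap1*, which carries receptors back to the membrane, was at 30.2 and 35.2 TPM against 16.5 and 26.4 TPM, the lowest of its list (log2 fold change -0.62), and *Gabarapl2* was the highest at 0.21. Chloride transporters and channels had 0 of 4 called and a median of -0.08, between -0.44 for the channel gene *Clcn2* and 0.05 for *Slc12a5*, the neuronal exporter that sets the chloride gradient. Neurosteroid and endozepine genes, whose products tune δ-containing and benzodiazepine-sensitive receptors, were the one list with a median above 0 (0.17, 0 of 4 called), from *Tspo* at -0.26 to *Akr1c14* at 0.52. The 2 tested glycine receptor subunits, *Glra2* and *Glrb*, had log2 fold changes of -0.25 and -0.23, and 0 were called.

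**Figure D4:**
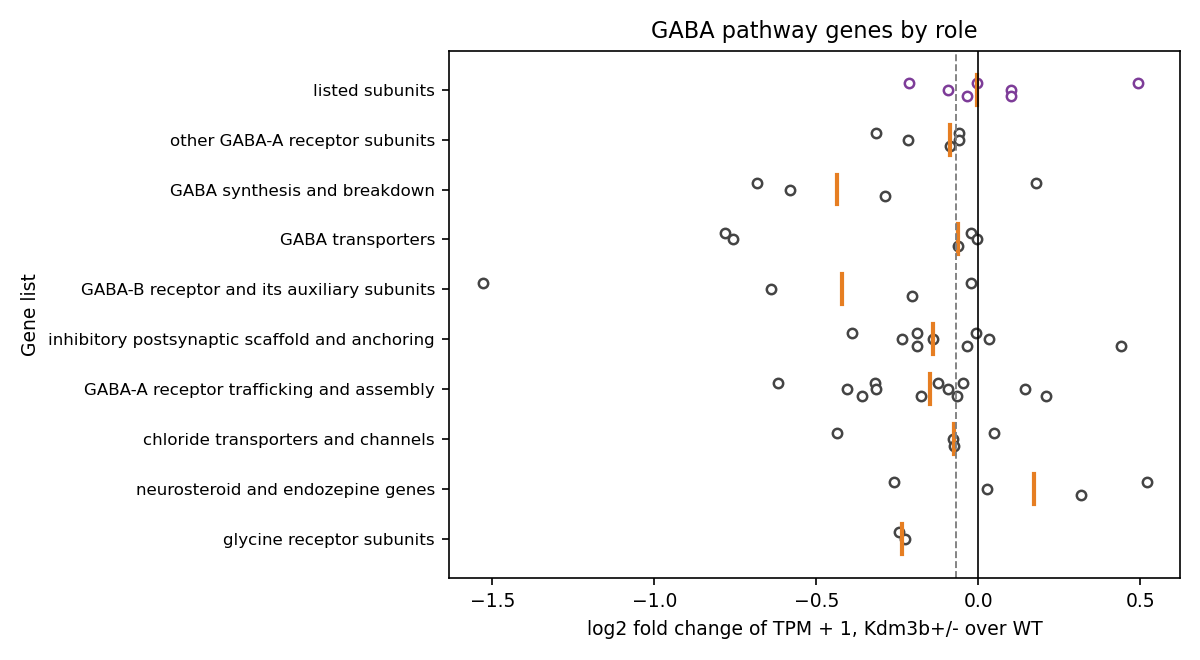
Log2 fold changes, *Kdm3b*+/- against WT, of the tested genes in each list of GABA signaling, with a point per gene, an orange bar at the list's median and a dashed line at the median of all tested genes (-0.07). Most points lie below 0, and the neurosteroid and endozepine list alone has its median above 0. The lowest point of the GABA-B receptor list is *Kctd12*, which was listed at 0 in *Kdm3b*+/- mouse 2.

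Purkinje cell and interneuron markers, which bear on these lists because such cells make and release GABA, were also lower by median. All 12 tested Purkinje cell markers, of 14, had log2 fold changes below 0 (median -0.48, 0 called), with the sums given above, highest in WT mouse 1. The 6 tested interneuron markers, of 9, had a median of -0.17 with 0 called. The list summed to 363 and 145 TPM in the WT mice and to 216 and 208 TPM in the *Kdm3b*+/- mice. Most of this sum was *Pvalb*, at 290 and 80.2 TPM in the WT mice and 161 and 145 TPM in the *Kdm3b*+/- mice. The sum thus mainly follows that 1 gene. Over the mice, *Pvalb* had the same order as the Purkinje cell sums, so the interneuron sum cannot be read apart from them. None of the markers was at 0 in every library. Their part in the values of the GABA lists was not tested.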

How the data were processed

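RNA from the GCE tissue of 2 WT and 2 *Kdm3b*+/- mice was sequenced by the authors, who trimmed low-quality bases, aligned reads with STAR and estimated abundance with StringTie. Genome build, annotation and versions are not given in the sources used here. By position, 99.5% of identifiers lay on the chromosome that RefSeq gives for GRCm38.p6. The authors deposited, for each library, coverage (mean read depth over exons, not normalized), FPKM (scaled to length and mapped fragments) and TPM (scaled to length and to 1000000 per library). These are not counts, so no count model was used, and aligned bases were derived by dividing coverage by FPKM.

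TPM was summed over entries with the same identifier (220 identifiers had several), and the 7 subunits had 1 entry each. Symbols were matched for 24462 of 24532 identifiers. Genes whose TPM averaged at least 1 were tested on log2(TPM + 1) with limma 3.58.1 (lmFit, eBayes with trend) in R 4.3.3, with genotype from the labels as the only term and Benjamini-Hochberg adjustment over 13652 genes. The pseudocount understates changes of low genes. Robust fits used statmod 1.5.0. Python 3.11.15, NumPy 2.4.6, pandas 2.3.3 and Matplotlib 3.10.9 made tables and figures, and the test was checked on simulated data. Likeness was the Euclidean distance between centred profiles. Promoters are RefSeq's, and transcript length and GC content were from GENCODE transcripts (94.5% of tested genes).

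The 7 subunits and all lists were chosen with earlier results of these data known. Besides them, the text names *Kdm3b*, called genes and the highest and lowest tested gene of each GABA list (except as said next), the 3 genes nearest to *Gabra6* and to *Gabrd*, and marker genes beside a result. The called transporter gene, and the highest and lowest of the other receptor subunits, are counted with their lists and are not reported here by name. *Slc6a13*, *Gad1* and *Gabbr2* were named after their values were seen, for calls under an alternative. Alternatives were a pseudocount of 0.1, FPKM, no filter, a mean TPM of at least 5, 3 other scalings, the highest entry per gene, eBayes without trend or robust, the replicate number as a block, a length and GC correction, other thresholds and each library left out. A group of 1 library is then assumed to vary like the other.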

Additional observations from a re-analysis of the deposited data

How the results depend on the processing

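Calls among the 7 subunits were 0 in each of 19 alternatives. The other thresholds could not add a call, since the lowest adjusted p of the 7 was 0.221 (limma). *Gabra2* stayed above 0 and *Gabrg1* below 0 in all 17 of theirs. The filters, the highest entry per gene, both eBayes variants and the replicate block cannot move these log2 fold changes. Their signs there were fixed in advance. The sign of the other 5 was not stable. For *Gabrb1* it turned under FPKM (0.028), median-ratio scaling (0.037) and quantile normalization (0.079), for *Gabra4* under the same 3 (0.050, 0.062 and 0.088), without the 20 highest genes (0.0040) and with the length and GC correction, with or without the replicate block (0.072), and for *Gabrd* with that correction, with or without the replicate block (0.065). When any 1 library was left out, log2 fold changes ran from -0.0088 to 0.21 for *Gabra6*, -0.20 to 0.012 for *Gabrd*, -0.039 to 0.24 for *Gabrb2*, -0.16 to 0.091 for *Gabrb1*, -0.26 to 0.26 for *Gabra4*, 0.35 to 0.64 for *Gabra2* and -0.25 to -0.18 for *Gabrg1*. For the log2 ratio of the granule-cell pair to the rest (difference -0.05), FPKM and the highest entry per gene cannot move it. Without WT mouse 2 or *Kdm3b*+/- mouse 2 its sign turned (0.023 and 0.033), and without WT mouse 1 or *Kdm3b*+/- mouse 1 it was -0.12 and -0.13.

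Over all genes, 63 calls became 39 under FPKM, 1 with no filter, 37 without trend, 33 with a log2 fold change over 1.2, 41 with the length and GC correction and the replicate block, and 21 to 188 with a library left out (21 and 28 without WT mice 1 and 2, 121 and 188 without *Kdm3b*+/- mice 1 and 2). Of the 63, 16 were higher, beside 23 of 61 under median-ratio scaling and 14 of 39 under FPKM. In the GABA lists, 1 call became 0 under FPKM, no filter, median-ratio, quantile, the 20 highest genes left out, no trend, the length and GC correction with or without the block, and a log2 fold change over 1.2, and 0 to 2 with a library left out. The causes were not tested.

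A shared replicate number marks different mice, and the deviations of mice with that number correlated at 0.121 (2 pairs). With the number as a replicate block, 600 genes were called (173 higher, 427 lower), 5 in the GABA lists (*Abat*, *Gad1*, *Gabbr2* and *Hap1* among them) and 0 of the 7 subunits, with an adjusted p of 0.107 for *Gabra2* (limma). Read depth over exons was 21.0 to 44.7 for *Gabra2*, 16.2 to 22.8 for *Gabra4* and 14.2 to 15.9 for *Gabrg1*, and its part in their errors was not tested.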
